A study of Saccharomyces cerevisiae with 8 samples.

Results

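Chromosome XII carries the rDNA, the tandem array of ribosomal RNA genes. It splits the chromosome into a stretch of unique sequence on the left, which holds the centromere, and a longer one on the right. All ChIP-Exo binding events of MCM2-7 and ORC on this chromosome were taken from 6 event lists, 748 of 9293 events in the genome, and were assigned to the left side (before position 451000, 291 events) or the right side (after position 469000, 457 events) of the R64 reference genome. Between these limits, which enclose the reference copy of the rDNA, there was no event. Events of all lists that lay up to 250 bp apart were chained into one locus, which gave 26 loci on the chromosome, 11 on the left and 15 on the right, of 355 in the genome. Both sides held nearly the same number of loci per length, but in each list the right side had more events per locus, and events of low score were the more numerous ones on the right in each list, while those of high score were so in 2 of 6 lists.

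Replication of a yeast chromosome starts at origins, short elements that were first isolated as autonomously replicating sequences (ARS) and that share an AT-rich ARS consensus sequence (ACS). The origin recognition complex (ORC) binds the ACS and, in G1-phase, loads the MCM2-7 helicase as a head-to-head pair of rings, which is then activated in S-phase. Each repeat of the rDNA contains an ARS and a replication fork barrier, which stops forks that move against the direction of ribosomal RNA transcription.

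The libraries were made from W303 cells whose MCM subunit Mcm4 or ORC subunit Orc2 carried a FLAG tag at its own genomic locus. FLAG-Mcm4 was immunoprecipitated from cells held in G1-phase with the mating pheromone alpha-factor, and FLAG-Orc2 from cells held in G1-phase in the same way or in G2-phase with nocodazole, a drug that blocks the mitotic spindle. There were 2 biological replicates of each condition and anti-Flag antibody was used throughout. In ChIP-Exo, lambda exonuclease trims the precipitated DNA up to the crosslinked protein, so that an event is placed at a single base. Mcm4 stands for MCM2-7 and Orc2 for ORC below. Each event has a score up to a cap of 1000, given by the caller, which ranks events within a list but is not normalised between lists, so it is used here as a percentile of its own list (100 is the highest). In replicates 1 and 2, the genome-wide lists were 1982 and 1723 events long for MCM2-7, 1170 and 1379 for ORC in G1, and 2178 and 861 for ORC in G2. No read counts are in the lists, so the depth of each single library is not known here. R64 holds only a short copy of the rDNA and comes from another strain, S288C, so distances over the array are those of the reference and not of the cells.

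Sequences of 8 loci are shown in R64 (RefSeq). They were chosen from the loci beside the rDNA, those with the most events, and those where ORC or MCM2-7 stood out below. ARS1226, with as many events as the EXG1-HRI1 locus, is not among them. Each line starts 20 bases before the best ACS match within 100 bp of the locus centre and ends 60 bases after it, is written 5′ to 3′ on the strand of the match, and has the 11 bases of the match in capitals.
ARS1213, left, chrXII:373255-373345, minus strand, 11 of 11 letters: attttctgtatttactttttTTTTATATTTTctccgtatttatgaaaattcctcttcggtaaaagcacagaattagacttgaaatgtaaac
ARS1215, left, chrXII:412780-412870, minus strand, 10 of 11 letters: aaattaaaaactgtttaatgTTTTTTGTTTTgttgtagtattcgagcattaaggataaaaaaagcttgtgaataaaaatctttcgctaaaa
ARS1217, right, chrXII:513011-513101, minus strand, 11 of 11 letters: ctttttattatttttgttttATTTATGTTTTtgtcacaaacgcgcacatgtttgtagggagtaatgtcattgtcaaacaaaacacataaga
ARS1220, right, chrXII:659875-659965, plus strand, 11 of 11 letters: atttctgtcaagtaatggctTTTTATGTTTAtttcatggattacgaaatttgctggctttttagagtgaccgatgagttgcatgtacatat
ARS1218, right, chrXII:603037-603127, minus strand, 10 of 11 letters: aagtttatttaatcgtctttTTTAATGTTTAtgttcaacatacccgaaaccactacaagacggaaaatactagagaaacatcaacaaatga
ARS1238, right, chrXII:888668-888758, minus strand, 11 of 11 letters: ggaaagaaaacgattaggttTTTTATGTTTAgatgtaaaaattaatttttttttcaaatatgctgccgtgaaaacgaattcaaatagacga
locus in SPO75, left, chrXII:139697-139787, plus strand, 9 of 11 letters: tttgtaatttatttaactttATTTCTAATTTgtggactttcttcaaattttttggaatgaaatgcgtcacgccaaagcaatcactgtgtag
locus between EXG1 and HRI1, right, chrXII:730528-730618, minus strand, 9 of 11 letters: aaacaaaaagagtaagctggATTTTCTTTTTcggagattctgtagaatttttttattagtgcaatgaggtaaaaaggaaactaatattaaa

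ARS1213, between the gene of the osmosensing kinase Hog1 and AVL9, was the only left-side locus with all 11 letters of the ACS, and on the right there were 6 of 15 such loci, among them ARS1217, ARS1220 and ARS1238. Over both sides 26.9% of the loci had a full match, against 37.1% of the 329 loci on the other chromosomes and 1.01% of the 58739 windows of 201 bp into which R64 was divided. A match of at least 10 letters, searched on both strands, was found at 9 of 11 left and 11 of 15 right loci, against 85.1% of loci elsewhere and 18.3% of the windows. Matches of 9 letters were found in 74.3% of the windows, so those of the SPO75 and EXG1-HRI1 loci are common ones. Of the 20 matches with at least 10 letters, 9 were on the plus strand and 11 on the minus strand. At these 20 loci the MCM2-7 centre lay on the downstream side of the match in 14, the ORC centre of G1 in 12 and that of G2 in 13. Elsewhere the counts were 195 of 280, 185 of 280 and 196 of 279, so those of chromosome XII did not stand above the rest of the genome. These shares of loci are descriptions, and no difference between the sides was tested.

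Loci lay at similar distances on both sides. On the left, the 10 distances between neighbouring loci had a median of 32.15 kb (quartiles 15.2 and 47.6 kb, range 8.67 to 83.9 kb), and on the right the 14 distances had a median of 36.3 kb (quartiles 19.8 and 56.6 kb, range 6.49 to 90.0 kb). The ranges of both sides overlap over nearly their whole length, and the medians, which differ by 4.12 kb, lie within the quartiles of each other. On the other 15 chromosomes, 314 distances had a median of 31.0 kb (quartiles 18.5 and 48.2 kb), and the medians of single chromosomes ran from 19.6 to 45.5 kb. There were 2.44 loci per 100 kb on the left and 2.46 on the right. Of the 15 other chromosomes 13 had more loci per 100 kb than either side, and loci elsewhere stood at 2.99 per 100 kb over all. Each side held a tight run of 3 loci. On the left, ARS1210, ARS1211 and the locus between RPS0B and MLO50 followed each other at 8.67 and 12.5 kb, and on the right ARS1232, ARS1233 and ARS1234 at 6.49 and 10.4 kb. No test was made, as neighbouring distances are not replicates.

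**Figure D1:**
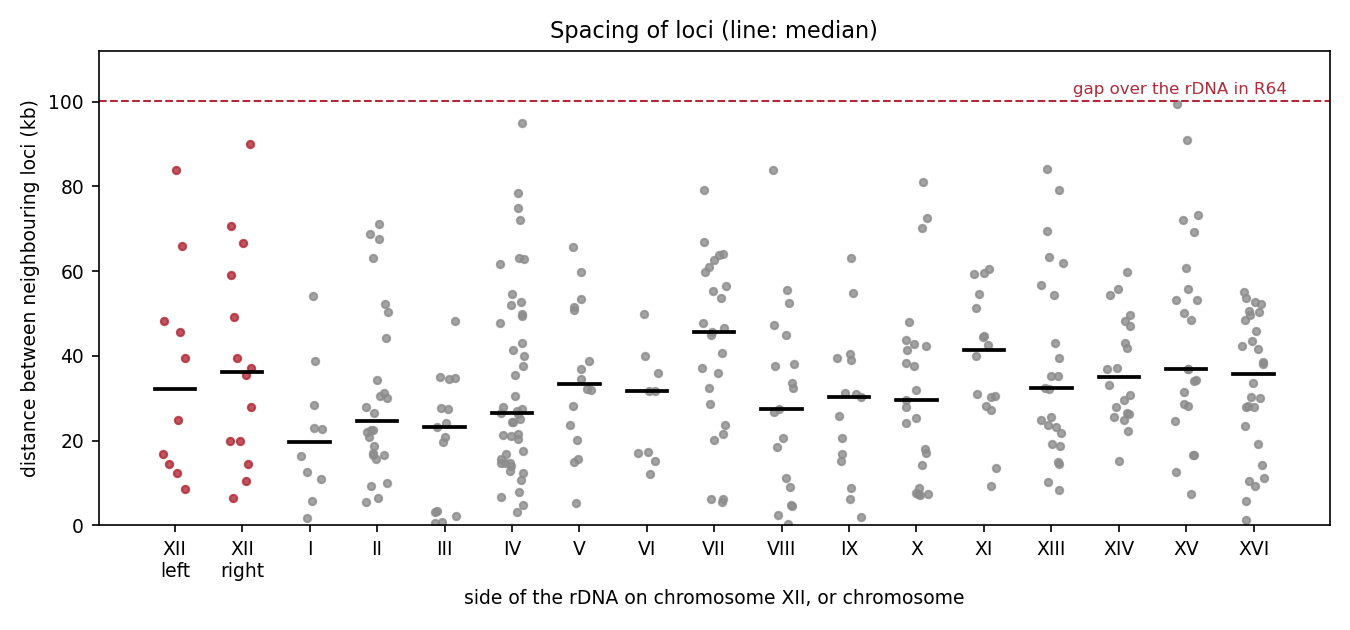
Distance between neighbouring loci (kb) on the left and right side of the rDNA on chromosome XII (red) and on each other chromosome (grey), with the median of each as a black line. The medians of the sides are 32.15 and 36.3 kb, and the dashed line at 100.2 kb is the gap over the rDNA in R64, above each of the 314 distances elsewhere.

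The rDNA lay in a long stretch without events. The last locus on its left was ARS1215 (chrXII:412613-413043), between PDC5, which encodes a pyruvate decarboxylase, and SLX4, which encodes a scaffold for structure-specific nucleases, 38.2 kb from the left limit. The first on its right was ARS1217 (chrXII:512875-513241), between YLR177W and TFS1, an inhibitor of carboxypeptidase Y, 44.1 kb from the right limit. The gap from ARS1215 to ARS1217 was 100.2 kb in R64, longer than all 314 distances between neighbouring loci on other chromosomes. Without the length between the limits it was 82.2 kb, and 98.4% of the distances elsewhere were shorter. The authors excluded the rDNA from event calling, so the absence of events in the array is no measurement, and the true gap depends on the number of repeats. The next gap to the right, from ARS1217 to ARS1218 with 90.0 kb, was longer than 99.0% of the distances elsewhere, and on the left the gap from ARS1212 to ARS1213 with 83.9 kb was longer than 98.4%.

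The left end had no event over a long stretch. The first locus of the left side lay 52.1 kb from the end, in the coding sequence of ATG10, which encodes an autophagy enzyme, and none of the 30 ends of other chromosomes had its first locus farther away. The last locus of the right side, ARS1235 between GAB1 and YLR460C, lay 18.5 kb from its end, and 7 of the 30 other ends had a longer distance. By contrast, 17 of these 30 ends had a locus within 10 kb. The loci nearest to the centromere were ARS1209, between NOC3, whose product acts in ribosome biogenesis and replication, and CMS1, 5822 bp away, and the locus in SPO75, a sporulation gene, 11105 bp away, where the next annotated gene is ORC3, which encodes an ORC subunit.

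R64 annotates 29 ARS on the chromosome, and 11 of them had no event within 250 bp in any list. This is 37.9%, against 18.5% of the 352 annotated ARS of the nuclear genome and 16.7% of the 323 on other chromosomes. The 11 include 2 ARS of the rDNA, which was left out of event calling, so their lack of an event is no measurement. Outside the rDNA the shares were 46.2% on the left and 21.4% on the right. On the left, 6 of 13 had no event. These were ARS1202, ARS1207, ARS1208, ARS1212.5, ARS1214 and ARS1216. ARS1207 had its nearest event 543 bp away, at the SPO75 locus, so its place among them depends on the margin of 250 bp. On the right, 3 of 14 had none, ARS1221, ARS1228 and ARS1230, and the remaining 2 are the rDNA elements ARS1200-1 and ARS1200-2. All 6 putative ARS of the chromosome were without an event, against 28 of 47 putative ARS elsewhere. Apart from the rDNA, the only others were therefore ARS1208 (chrXII:150947-151389), which abuts the centromere and had its nearest event 5111 bp away, ARS1212.5 (chrXII:343577-344032) with its nearest event 29156 bp away, and ARS1216 (chrXII:450485-450725), next to the rDNA with its nearest event 37442 bp away. ARS1216 lies so close to the array that the excluded region may cover it, which was not tested, since the limits of that region are not given in the sources used here. Of the 26 loci, 18 lay within 250 bp of an annotated ARS, and 80.3% of all loci of the genome did so.

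All 26 loci had an event in each of the 6 lists, so there was no locus with MCM2-7 alone or ORC alone. In the genome 90.7% of the loci had an event in each list, and 90.0% of the loci on other chromosomes. The mean number of events per locus, summed over the lists, was 26.5 ± 6.30 (SD, n = 11 loci) on the left and 30.5 ± 9.62 (SD, n = 15 loci) on the right, beside 26.0 ± 7.58 (SD, n = 329 loci) elsewhere. The medians of both sides were close, with 26 and 27 events.

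In MCM2-7, there were 65 events on the left and 103 on the right in replicate 1, and 49 and 78 in replicate 2. In ORC, G1 had 42 and 58 events in replicate 1 and 39 and 67 in replicate 2. ORC in G2 had 69 and 106 events in replicate 1, and 27 and 45 in replicate 2, the shortest list. Per 100 kb, the right side was higher in 6 of 6 lists, from 1.02-fold in replicate 1 of ORC in G1 (9.31 left, 9.52 right) to 1.27-fold in replicate 2 of the same condition. The densities were 14.4 and 16.9 events per 100 kb in replicate 1 of MCM2-7, and 10.9 and 12.8 in replicate 2. For ORC in G2 they were 15.3 and 17.4 in replicate 1, and 5.99 and 7.39 in replicate 2. The mean log2 ratio of right to left was 0.22 ± 0.11 (SD, n = 6 lists), a 1.17-fold higher density (exact sign-flip permutation test over the lists, two-sided, p = 0.03125, which is the smallest that 6 lists can give). Adjusted by Benjamini-Hochberg over the 3 tests between the sides, the value was 0.03125 for each of them. All lists share the same loci, so these p-values measure the spread between lists and not between loci.

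Per locus, the lists gave the same order. This follows from the densities, as the sides held nearly equal numbers of loci per 100 kb (2.44 and 2.46). The test per locus is therefore no result independent of the test of density. MCM2-7 had 5.91 events per locus on the left and 6.87 on the right in replicate 1, and 4.45 and 5.20 in replicate 2. ORC in G1 had 3.82 and 3.87 in replicate 1 and 3.55 and 4.47 in replicate 2. ORC in G2 had 6.27 and 7.07 in replicate 1 and 2.45 and 3.00 in replicate 2. The right side was higher by 0.669 ± 0.337 events per locus (SD, n = 6 lists, exact sign-flip permutation test, p = 0.03125). With the median over loci in place of the mean, the difference was 0.667 with 4 of 6 lists higher on the right, and the exact p was 0.125. The right-side mean of 30.5 events per locus was above that of each of the 15 other chromosomes, whose highest was 27.8, while 5 of the 15 were above the left side. No test was made against the chromosomes.

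The 3 most crowded loci of the chromosome were all on the right. ARS1220 (chrXII:659688-660101), between YLR257W and the glycogen synthase gene GSY2, held 49 events, with 12 and 8 of MCM2-7, 5 and 4 of ORC in G1 and 13 and 7 of ORC in G2 in replicates 1 and 2. The locus between EXG1, which encodes a cell wall glucanase, and HRI1 (chrXII:730320-730741) held 46, with 9 and 5 of MCM2-7, 9 and 6 of ORC in G1 and 11 and 6 of ORC in G2. ARS1226 (chrXII:793989-794428), between the cell wall sensor gene MID2 and the ribosomal protein gene RPS25B, also held 46, with 9 and 10 of MCM2-7, 6 and 7 of ORC in G1 and 8 and 6 of ORC in G2. The highest locus on any other chromosome held 45. On the left, the highest were the locus between the ribosomal protein gene RPS0B and MLO50 (chrXII:243633-243902) with 37 events, ARS1215 with 34, and ARS1212 (chrXII:289339-289537), beside the galactose permease gene GAL2, with 33.

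The other 20 loci held between 18 and 37 events. ARS1218 held 37 and the SFP1-SEI1 locus 33 on the right, and the ATG10 locus with 18 and ARS1213 with 19 were the lowest of the chromosome. ORC in G1 was sparse at ARS1233, with 1 event in each replicate, and at the locus between YLL032C and GPI13, which encodes an enzyme of membrane anchor synthesis, with 2 in each. Replicates differed by several events at single loci. ARS1238 had 6 and 2 MCM2-7 events and 1 and 7 ORC events in G1, ARS1212 had 4 and 9 ORC events in G1, and ARS1213 had 9 and 1 ORC events in G2. Across the 26 loci, the number of MCM2-7 events and that of ORC events in G1 had a Spearman's rho of 0.453 (0.243 over 329 loci elsewhere), and MCM2-7 and ORC in G2 a rho of 0.151 (0.227 elsewhere), as descriptions over loci that share the same genome. Between replicates, the rho of the number of events was 0.666 for MCM2-7, 0.396 for ORC in G1 and 0.286 for ORC in G2.

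Leaving out single loci, an alternative chosen after the values had been seen, changed the tests. Without ARS1220 the log2 density ratio was 0.058 (exact p = 0.3125), without the EXG1-HRI1 locus 0.061 (exact p = 0.3125) and without ARS1226 0.061 (exact p = 0.2188), with side lengths kept as they were. Over the 26 loci left out one at a time, the exact p for density was below the threshold of 0.05 in 13 cases and above it in 13. With side lengths kept, leaving out a right locus can only lower the ratio and a left locus only raise it. The direction of these changes was thus fixed, and all cases above the threshold were right loci. For events per locus, the difference ran from 0.448 without ARS1220 to 0.844 without the RPS0B-MLO50 locus, and the exact p was above the threshold in 9 of 26. Without the 20 kb at each chromosome end, which takes out ARS1235, the density ratio was 0.11 on the log2 scale (exact p = 0.09375) and the difference per locus 0.710 (exact p = 0.0625). The number of events fell with distance from the rDNA on each side, with Spearman's rho of -0.479 over 11 left loci and -0.539 over 15 right loci, given as a description only.

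**Figure D2:**
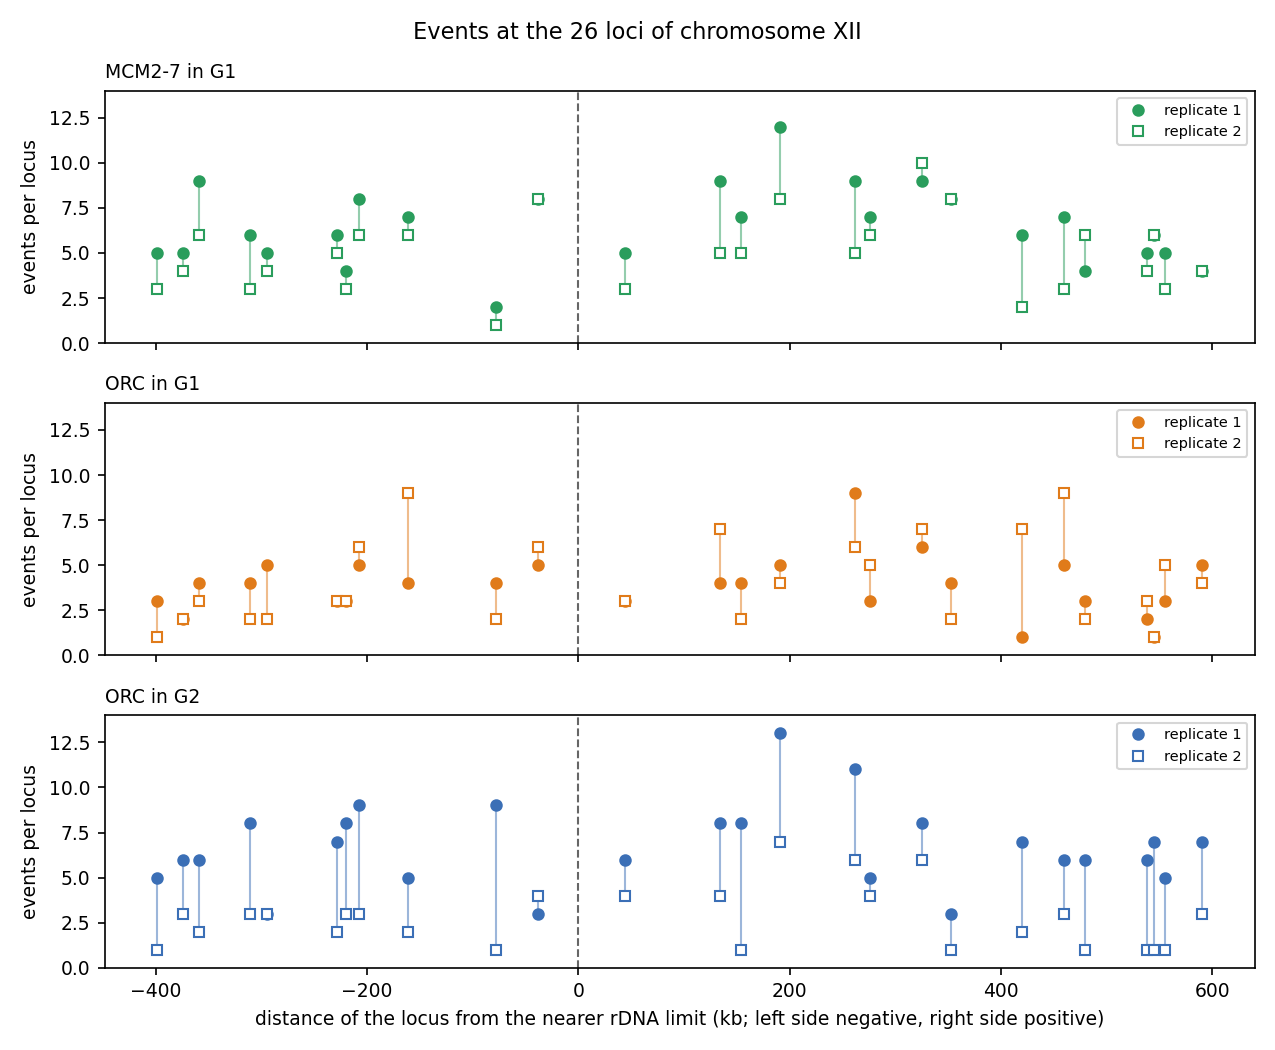
Number of events per locus (vertical axis) in replicate 1 (filled circles) and replicate 2 (open squares) of each condition, against the distance of the locus from the nearer rDNA limit in kb, with the left side negative. ARS1220, with 12 and 8 MCM2-7 events and 13 and 7 ORC events in G2, is the highest point of 2 panels, and ARS1213, the lowest in the top panel, has 2 and 1 MCM2-7 events.

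Events of the right side had lower scores than those of the left side. The mean score percentile of MCM2-7 events was 57.7 on the left and 50.8 on the right in replicate 1, and 55.3 and 53.0 in replicate 2. ORC in G1 had means of 50.4 and 42.9 in replicate 1 and 53.1 and 46.3 in replicate 2. ORC in G2 had 49.4 and 43.6 in replicate 1 and 54.2 and 40.1 in replicate 2. The right side was lower in 6 of 6 lists, and the difference of right minus left was -7.21 ± 3.81 percentile points (SD, n = 6 lists, exact sign-flip permutation test, p = 0.03125). Events on other chromosomes averaged 49.7 to 50.4 in the 6 lists. The right side of ORC in G2, at 41.9 over both replicates, stood below all 15 other chromosomes, of which the lowest had 43.9, and in G1, at 44.6, it stood below 14 of 15. For MCM2-7, the left side, at 56.5, stood above 14 of the 15, and the right side, at 51.9, above 12. In MCM2-7 the right side was thus lower than the left but not lower than most other chromosomes.

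The share of events at the cap of the score went the same way. It uses the same scores of the same events, as does the split at the median that follows. Neither is a result independent of the percentile. For MCM2-7 it was 73.8% of left and 60.2% of right events in replicate 1, and 61.2% and 59.0% in replicate 2, beside 55.8% of all MCM2-7 events of the genome. For ORC in G1, 15 of 42 left and 7 of 58 right events were at the cap in replicate 1, and 14 of 39 and 20 of 67 in replicate 2, beside 32.6% of all events. For ORC in G2, 8 of 69 left and 5 of 106 right events were at the cap in replicate 1, and 2 of 27 and 0 of 45 in replicate 2, beside 9.84% of all events. The count of 0 in 45 allows a share of up to 6.67%, for counting error only. The right side thus had the lower share in each list, and right minus left was -9.98 percentage points on average, a measure added after the values had been seen.

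Split at the median score of each list, which is the cap itself for MCM2-7, the surplus of the right side over the left was mostly in the lower part. Events below the median numbered 1.55 per locus on the left and 2.73 on the right in replicate 1 of MCM2-7, and 1.73 and 2.13 in replicate 2. In ORC, the values were 2.18 and 2.40, and 1.45 and 2.60 for G1, and 3.27 and 3.93, and 1.18 and 1.87 for G2. Loci elsewhere had 2.29 and 2.36 such events in MCM2-7, 1.58 and 1.92 in ORC in G1, and 2.99 and 1.17 in ORC in G2. In MCM2-7 the left side was thus below the loci elsewhere in both replicates, and the right side above them in replicate 1 only. In ORC the right side was above them in each list. The left side was too, except in replicate 2 of G1, and only by little in replicate 2 of G2 (1.18 against 1.17). The right side was higher than the left by 0.717 ± 0.389 low-scoring events per locus (SD, n = 6 lists), in 6 of 6 lists. Events at or above the median differed by -0.048 ± 0.23 per locus (SD, n = 6 lists), with the right side higher in 2 of 6 lists (exact sign-flip permutation test, p = 0.5938). Their density differed by -0.042 on the log2 scale (exact p = 0.5). Per locus, these high-scoring events numbered 4.36 on the left and 4.13 on the right in replicate 1 of MCM2-7, but 2.73 and 3.07 in replicate 2. Such events numbered 3.23 and 2.49 at loci elsewhere, fewer than on either side. In ORC, they numbered 1.64 and 1.47, and 2.09 and 1.87 in the G1 replicates, and 3.00 and 3.13, and 1.27 and 1.13 in the G2 replicates. Replicate 2 of MCM2-7 thus had part of its surplus, 0.339 of 0.745 events per locus, among events of high score, and replicate 1 of ORC in G2 had 0.133 of 0.794. The split of the lower part was added after the values had been seen and was not tested. Among events at or above the median the percentile still differed by -3.30 points (exact p = 0.25), and the best event of each locus differed by -5.01 points (exact p = 0.25), neither past the threshold. By condition, the best event differed by 1.78 points in MCM2-7, -4.58 in ORC in G1 and -12.2 in ORC in G2. With each locus left out in turn, an alternative added later, the difference over all events ran from -10.25 points without ARS1210 to -4.93 points without the RPS0B-MLO50 locus. Its exact p was above the threshold in 2 of the 26 cases, without ARS1226 and without the CTR3-BER1 locus (0.0625 in both).

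**Figure D3:**
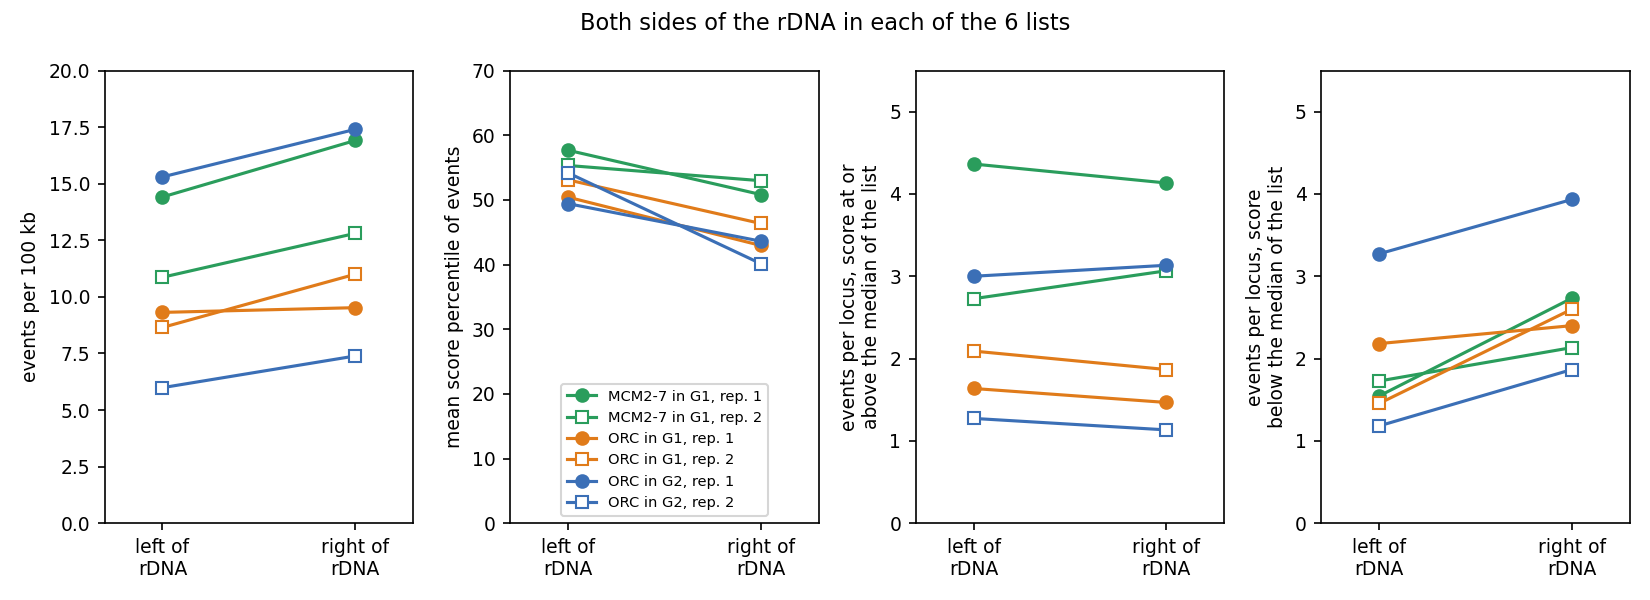
Left and right side of the rDNA in each of the 6 lists, joined by a line: events per 100 kb, mean score percentile of the events, and events per locus with a score at or above and below the median of the list (each vertical axis starts at 0). Each line rises in the first and last panels and falls in the second, while 2 of 6 lines rise in the third.

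The best MCM2-7 event of a locus reached the cap at all loci and in both replicates except ARS1210, where it stood at percentile 34.9 in replicate 2. To order the loci within the ties, each was ranked among the 355 loci by its first-listed MCM2-7 event, as the lists run approximately from high to low score. The locus in SPO75 had ranks of 33 and 22 in replicates 1 and 2. ARS1213 followed with ranks of 38 and 18, although it held only 2 and 1 MCM2-7 events, the fewest of the chromosome, beside 4 and 2 ORC events in G1 and 9 and 1 in G2. ARS1235 had ranks of 35 and 89, and the locus between SFP1, which encodes a regulator of ribosome biogenesis, and SEI1 had 97 and 28. At the other end were ARS1210 (312 and 335), the locus between the copper transporter gene CTR3 and BER1 (321 and 312), and ARS1233, whose locus centre lies in CAR2, the ornithine aminotransferase gene (289 and 317). At these 3 loci ORC was also listed late, with G1 ranks of 301 and 328, 328 and 315, and 334 and 299. The replicates gave similar orders of the 26 loci, with Spearman's rho of 0.763 for MCM2-7, 0.705 for ORC in G1 and 0.842 for ORC in G2. The median rank in MCM2-7 was 95 and 94 on the left and 169 and 153 on the right.

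The loci beside the rDNA had several events in each list. ARS1215, on the left, held 8 and 8 MCM2-7 events, 5 and 6 ORC events in G1 and 3 and 4 in G2, with MCM2-7 ranks of 96 and 204. ARS1217, on the right, held 5 and 3 MCM2-7 events, 3 and 3 ORC events in G1 and 6 and 4 in G2, with MCM2-7 ranks of 110 and 33. Thus ARS1215 had the higher number of MCM2-7 and G1 ORC events in both replicates, and ARS1217 was listed earlier in replicate 2 only. ORC ranks in G2 were 118 and 104 at ARS1215 and 36 and 76 at ARS1217, and in G1 they were 216 and 195 at ARS1215 and 144 and 87 at ARS1217, so ARS1217 came earlier in each of the 4 ORC lists. ARS1219, the third locus on the right between CSC1 and ARV1, had ORC ranks of 330 and 335 in G1 and 336 and 194 in G2, and MCM2-7 ranks of 267 and 284, so it was late in 5 of the lists and near the middle in replicate 2 of ORC in G2.

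ORC in G1 and in G2 was compared at each locus by the percentile of its best event, and a locus was called where both G1 values lay above or below both G2 values. On chromosome XII, 5 loci were higher in G1 and 5 in G2, and in 16 the values overlapped. Over all 355 loci of the genome, 14.1% were higher in G1 and 32.1% in G2 by the same rule. Of the 5 loci higher in G1, 4 were on the right side and 1 on the left, and of the 5 higher in G2, 3 were on the right. With 2 against 2 values an exact permutation test cannot go below p = 0.333, so these are descriptions. The balance changed with single libraries left out, where 1 value against 2 overlaps less often and no share over all loci is given. It was 11 loci higher in G1 and 7 in G2 without replicate 1 of ORC in G2, 5 and 15 without replicate 2 of ORC in G2, 6 and 14 without replicate 1 of ORC in G1, and 8 and 6 without its replicate 2.

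ARS1238, between SMC6, which encodes a subunit of the Smc5/6 complex, and IKI3, showed the largest difference towards G1. Its best ORC event stood at percentiles 85.3 and 82.3 in G1 and 67.3 and 5.92 in G2. It held 1 and 7 ORC events in G1 and 7 and 2 in G2, so the count of events did not follow the score. The locus between YLR345W and CIS1 had percentiles of 54.4 and 50.9 in G1 and 23.3 and 2.15 in G2. ARS1234, between ECM7 and GMC2, had 85.3 and 82.3 in G1 and 74.9 and 39.8 in G2. Replicate 2 of G2, the shortest list, was the lowest value at each of these 3 loci. The remaining ones were ARS1212, with 85.3 and 82.3 in G1 against 68.4 and 53.8 in G2, and the SFP1-SEI1 locus. All 5 except the SFP1-SEI1 locus were also earlier in both G1 lists by rank among the loci, as for ARS1212 with ranks of 118 and 29 in G1 and 243 and 218 in G2.

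Towards G2, the largest difference was at ARS1218, between ECM22, a regulator of sterol genes, and CDC42, which encodes the GTPase of cell polarity. Its percentiles were 68.1 and 60.0 in G1 and 94.5 and 90.2 in G2, and its ranks among the loci 225 and 213 in G1 and 73 and 74 in G2, with no overlap by either measure. ARS1206, between the chaperone gene HSP104 and PAU17, was at the cap in all 4 ORC lists, and its call follows from the cap, which stands at percentiles 85.3 and 82.3 in the G1 lists and 94.5 and 96.5 in the G2 lists. ARS1226 was at the cap in both G1 lists and in 1 G2 list, with 90.9 in the other, so its percentile is likewise limited in G1. ARS1217 and the RPS0B-MLO50 locus were at the cap in both G1 lists too. By rank among the loci, which does not depend on the cap and was added after the values had been seen, 4 loci were higher in G1 and 8 in G2 (20.8% and 22.3% over all loci). The 8 were ARS1209, ARS1210, ARS1213, ARS1215, ARS1217, ARS1218, ARS1223 and the CTR3-BER1 locus, of which ARS1217 and ARS1218 were also called by percentile. ARS1213, ARS1215, ARS1217 and ARS1218 are neighbours, 2 on each side of the rDNA, a grouping seen after the calls and not tested. The separation was narrow at ARS1213 (ranks 172 and 181 in G1, 163 and 79 in G2) and at ARS1217 (144 and 87 in G1, 36 and 76 in G2). By percentile, the values of ARS1213 and of ARS1215 overlapped between G1 and G2.

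**Figure D4:**
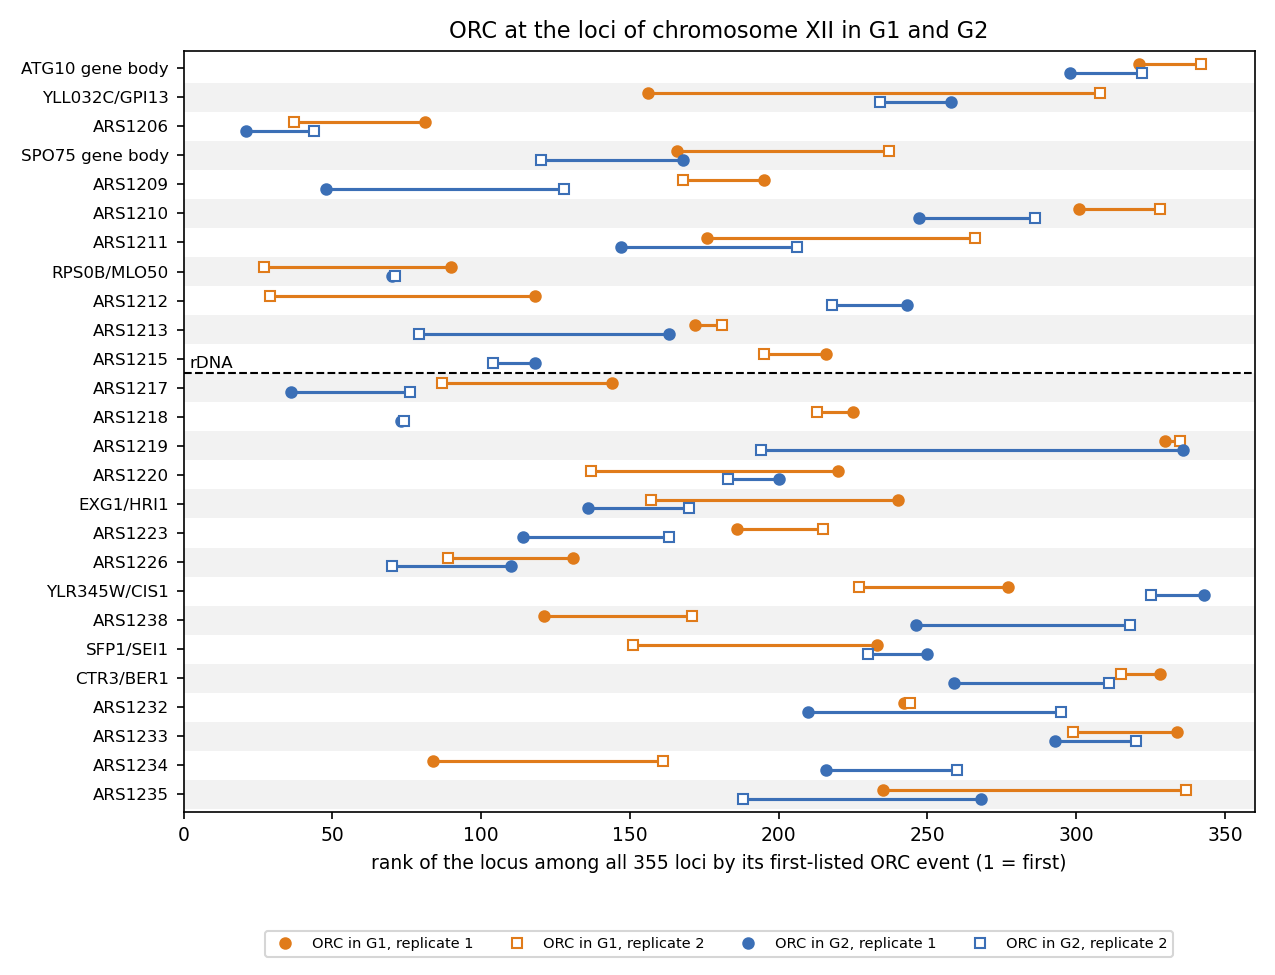
Rank of each locus of chromosome XII among all 355 loci by its first-listed ORC event in G1 (orange) and G2 (blue), with replicate 1 as circles and replicate 2 as squares, in the order of the chromosome from top to bottom (dashed line, rDNA). ARS1218, with ranks of 225 and 213 in G1 and 73 and 74 in G2, and ARS1212, with 118 and 29 in G1 and 243 and 218 in G2, differ in opposite directions.

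Distances between MCM2-7 and ORC were taken between the centres of their events at each locus. Events of a locus are chained up to 250 bp apart, so short distances are partly set by the definition of a locus. The centre of the MCM2-7 events and that of the ORC events in G2 were a median of 19 bp apart on the left and 42 bp on the right, beside 31.8 bp elsewhere. At the SPO75 locus they fell on the same base and at ARS1213 they were 0.5 bp apart, whereas at ARS1233 they were 181.5 bp apart. For ORC in G1, the median distance from MCM2-7 was 16 bp on the left, 25 bp on the right and 37 bp elsewhere. An event had a partner within 50 bp in the other replicate in 93.9% of left and 85.6% of right cases for MCM2-7, 77.8% and 79.2% for ORC in G1, and 70.8% and 68.9% for ORC in G2. No share for loci elsewhere is given here, and how far the crowding of events within a locus raises these shares was not tested. The loci spanned a median of 335 bp on the left and 378 bp on the right, and 370 bp elsewhere. No test was made of these distances.

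The loci were mostly in intergenic DNA. Of the 26 loci, 23 had their centre between genes, and 3 had it in a gene, ATG10, SPO75 and CAR2, while 95.4% of loci elsewhere were intergenic. Of the 23 intergenic loci, 14 lay between tandem genes and 9 between convergent genes, and 0 between divergent genes, against 55 of 309 (17.8%) elsewhere. Elsewhere 46.3% of the pairs were tandem and 35.9% convergent. Convergent pairs flanked 2 of 9 intergenic loci on the left and 7 of 14 on the right. The median AT content of the 201 bp around the centre was 69.7% on the left and 70.1% on the right, beside 71.1% at loci elsewhere and 61.7% in the windows of R64. No test was made of these shares.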

How the data were processed

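ChIP-Exo events of Mcm4 (G1-phase) and Orc2 (G1- and G2-phase), both with a FLAG tag, were analysed from 6 deposited lists, 1 per biological replicate. The S-phase samples of Orc2 are not analysed here. The authors mapped reads with Bowtie2 (version 2.3.5) to sacCer3, which has the coordinates of R64, and called events with ChExMix (version 0.45) for each replicate, without motif discovery, at 1.5-fold enrichment and a q-value of 0.01, leaving out tRNA genes and the rDNA. The score of each event was deposited by the authors as a whole number from 66 to a cap of 1000, with no normalisation between lists. Its definition is not given in the sources used here. The lists hold no counts, and the study's methods give only a typical and a minimum read depth, so the depth of each sample is not known here. The threshold on events can depend on it.

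The position of an event is the end coordinate of its interval. Loci are chains of events up to 250 bp apart over all lists, and their centre is the median position. Percentiles are midranks within a list. Right and left sides were compared within each list by exact two-sided sign-flip permutation tests over the 6 lists, adjusted by Benjamini-Hochberg. Spacing, sequence and the comparison of G1 with G2 are descriptions. Annotated ARS and genes are those of RefSeq R64. ACS matches were counted over 11 positions on both strands within 100 bp of the locus centre. Loci are named in the text if they are, on each side, the 3 nearest to the rDNA, the 3 with most events or the nearest to the end, the 2 nearest to the centromere, the 3 highest and 3 lowest in MCM2-7, or the 3 with the largest called ORC difference each way. Annotated ARS without an event are also named, and other loci were named after their values had been seen. The members and lists were chosen with earlier results of these data known. Alternatives were chains of 100 and 500 bp, events in the upper part of their list (median score or higher), sides without the 20 kb at each end, loci in at least 2 lists, the place in the list, the best event of each locus, and each replicate left out. Matplotlib 3.10.9, SciPy 1.17.1, pandas 2.3.3 and NumPy 2.4.6 were run under Python 3.11.15, and 11 of 11 measures were recovered from simulated lists.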

Additional observations from a re-analysis of the deposited data

How the results depend on the processing

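The difference between the median distances of both sides (4.12 kb) was 8.33 kb with events chained up to 100 bp and 4.91 kb without the 20 kb at each end, and 4.10 to 4.12 kb with each replicate left out. The log2 density ratio (0.22) was 0.11 without the ends and -0.042 with only the events whose score reached the median of the list. The difference in events per locus (0.669) was 0.710 without the ends, 0.667 as a median over loci and -0.048 among events at or above the median. The percentile difference (-7.21) was -3.30 among events at or above the median and -5.01 for the best event of each locus. With each replicate left out in turn, the density ratio ran from 0.20 to 0.26, the difference per locus from 0.611 to 0.793 and the percentile difference from -8.18 to -5.84, each with the smallest exact p that 5 lists allow, 0.0625, by construction over the threshold. The 10 calls of ORC in G1 against G2 became 10 to 20 with each replicate left out, and were 20 without replicate 1 of ORC in G1, 18 without replicate 1 of G2 and 20 without replicate 2 of G2, since 1 value against 2 overlaps less often. With the replicate number as a block, G1 minus G2 within each number had one sign at 14 loci, 5 higher in G1 and 9 in G2. The numbers name replicates, and with 2 of them whether they pair the samples was not tested. Also, 2 differences can share a sign by chance. No share over all loci is given for this rule or for the calls with a replicate left out, so these counts are descriptions. How depth bears on the number of low-scoring events was not tested, and both sides of a list share its depth.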
